A study of Rattus norvegicus with 14 samples.

Results

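Egr1 to Egr4, Nr4a1 to Nr4a3, Arc and Npas4 are 9 genes that neurons transcribe within minutes of strong synaptic input, and they were followed here in the motor cortex of rats with a spinal cord injury. The 9 were taken by symbol from the platform's probe annotation, where each has 1 probe set, out of 22093 genes with a probe set of a single symbol. Their identity as activity genes and earlier results of these same arrays guided the choice, so their differences between groups are given as a description. The MSC group comprised 7 motor cortex samples of male rats, taken 3 days after MSC were infused through the femoral vein. The vehicle group comprised 7 motor cortex samples of male rats, taken 3 days after a vehicle infusion by the same route. Both groups had a spinal cord injury, were infused 24 hours after it and received cyclosporine A, which blocks calcineurin, every day. No uninjured, uninfused or cyclosporine-free group was analysed here, and the sources used here give neither strain nor age, nor where the MSC (usually mesenchymal stem or stromal cells) came from. The labels do not state whether arrays and rats correspond one to one, so tests measure a spread between arrays that could be partly technical.

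Calcium entry through NMDA receptors and voltage-gated channels activates CREB, SRF and MEF2, which sit ready on the promoters of these genes, and no new protein is needed for the first wave of transcripts. Egr proteins are zinc finger transcription factors, Nr4a proteins are orphan nuclear receptors, and Npas4 is a bHLH-PAS factor that responds rather selectively to calcium in neurons. Arc differs from the rest in that it acts at the synapse, where it promotes removal of AMPA receptors. In cortex the transcripts turn over fast, so such RNA levels generally follow events shortly before sampling; the tissue was taken under anaesthesia.

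RefSeq promoter windows of the rat assembly GRCr8 were found for 6 of the 9 genes, and Egr3, Nr4a3 and Arc were not among them. The 250 bases before the start are shown for Egr1, Egr2, Egr4 and Nr4a1, because their levels moved most closely together across the arrays. Capitals mark CArG boxes, the motif that SRF binds, and the letters TGACG, the core of a CREB site, which read CGTCA where they lie on the other strand. Both motifs were searched on both strands, and no match of one overlapped a match of the other in these windows.
Egr1, chr18:26736828-26737077, plus strand: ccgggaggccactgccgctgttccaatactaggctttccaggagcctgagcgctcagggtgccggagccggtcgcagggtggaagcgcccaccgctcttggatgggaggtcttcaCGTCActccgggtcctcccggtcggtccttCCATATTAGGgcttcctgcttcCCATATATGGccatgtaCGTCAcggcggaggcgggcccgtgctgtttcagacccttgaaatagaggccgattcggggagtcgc
Egr2, chr20:21054442-21054691, minus strand: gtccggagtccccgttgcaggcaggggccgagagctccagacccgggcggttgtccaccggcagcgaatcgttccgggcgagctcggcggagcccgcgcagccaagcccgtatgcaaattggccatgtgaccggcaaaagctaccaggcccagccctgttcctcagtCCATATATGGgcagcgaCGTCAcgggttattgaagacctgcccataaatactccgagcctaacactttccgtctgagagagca
Egr4, chr4:119607818-119608067, minus strand: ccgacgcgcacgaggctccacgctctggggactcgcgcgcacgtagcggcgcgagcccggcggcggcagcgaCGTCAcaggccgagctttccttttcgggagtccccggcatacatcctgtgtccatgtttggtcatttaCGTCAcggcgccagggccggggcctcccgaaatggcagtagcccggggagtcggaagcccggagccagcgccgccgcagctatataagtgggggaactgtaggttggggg
Nr4a1, chr7:134259888-134260137, plus strand: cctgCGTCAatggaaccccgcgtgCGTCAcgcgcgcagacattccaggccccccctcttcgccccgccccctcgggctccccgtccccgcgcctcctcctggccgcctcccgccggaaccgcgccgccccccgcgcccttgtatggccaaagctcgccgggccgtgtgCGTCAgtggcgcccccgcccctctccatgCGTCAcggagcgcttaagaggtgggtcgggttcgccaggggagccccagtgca

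The Egr1 window held 2 CArG boxes and the Egr2 window 1, whereas 1.5% of the 33469 windows in the table held any and 0.0209% held at least 2. One box, with the letters CCATATATGG, lay from base -83 to -74 before the start in both Egr1 and Egr2, and in both a CGTCA followed from -66 to -62. The letters TGACG occurred 4 times in Nr4a1, 2 times each in Egr1 and Egr4, 1 time each in Egr2 and Nr4a2, and not in Npas4, against 18.2% of all windows with at least 1 and 0.173% with at least 4. The full palindrome TGACGTCA was found in none of the 6 windows and in 1.59% of all windows. The Egr binding motif GCGGGGGCG occurred in Nr4a1 only among the 6, and in 2.45% of all windows. In Egr1 and Egr4 the window ends where the annotated gene begins, while in Egr2, Nr4a1, Nr4a2 and Npas4 the start used lies inside the annotated span of the gene, which runs from 21050149 to 21055201 for Egr2 and from 134247153 to 134268044 for Nr4a1. A match describes letters only, and nothing about binding was measured.

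The values are RMA log2 expression values, and each gene is compared only with itself, since probe sets differ in their response. Medians of the 14 arrays ran from 5.77 to 5.90. The mean of neuron markers such as Snap25 and Slc17a7 ran from 15.05 to 15.63, so neuronal transcripts were present in every array. Both group means of all 9 genes lay above the array medians. Some arrays carried transcripts of neighbouring tissue. MSC replicate 4 and vehicle replicate 2 stood at 9.18 and 9.22 for the mean of 8 choroid plexus markers, against 5.62 to 6.34 on the other arrays, and MSC replicate 6 stood at 8.73 for striatal neuron markers, against 7.67 to 8.04 on the others. One label of MSC replicate 7, its description, says vehicle where its title, source name and treatment say MSC, and it was kept as MSC. The dap spike-in control averaged 7.45 to 8.12 on replicates 6 and 7 of both groups and 8.35 to 9.92 on the rest. The phe control split the same way, at 5.51 to 6.25 against 6.35 to 7.95, but the lys and thr controls overlapped between these sets. No label names a batch, and values within these sets are given for some of the genes.

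No difference in mean or spread passed the test for any of these genes. Lower means in MSC arrays were only somewhat more common than among all probe sets. Means were lower in the MSC group for 6 of the 9, Arc, Nr4a1, Npas4, Egr2, Egr1 and Nr4a3, and higher for Nr4a2, Egr3 and Egr4. Across all 68842 probe sets tested, 58% had a lower mean in MSC, and across the 22093 genes 52.4%. The median log2 difference, MSC minus vehicle, was -0.28 over the 9 genes, against -0.015 over all probe sets. In limma with Benjamini-Hochberg adjustment over all probe sets, 0 of the 9 genes and 0% of all probe sets passed an adjusted p of 0.05, and 1 of the 9, Nr4a1, had an unadjusted p below 0.05, as did 3.41% of all probe sets. Every one of the 9 had an adjusted p of 0.9999 in limma. In bulk tissue, fewer cells of a type and less RNA per cell cannot be told apart.

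**Figure D1:**
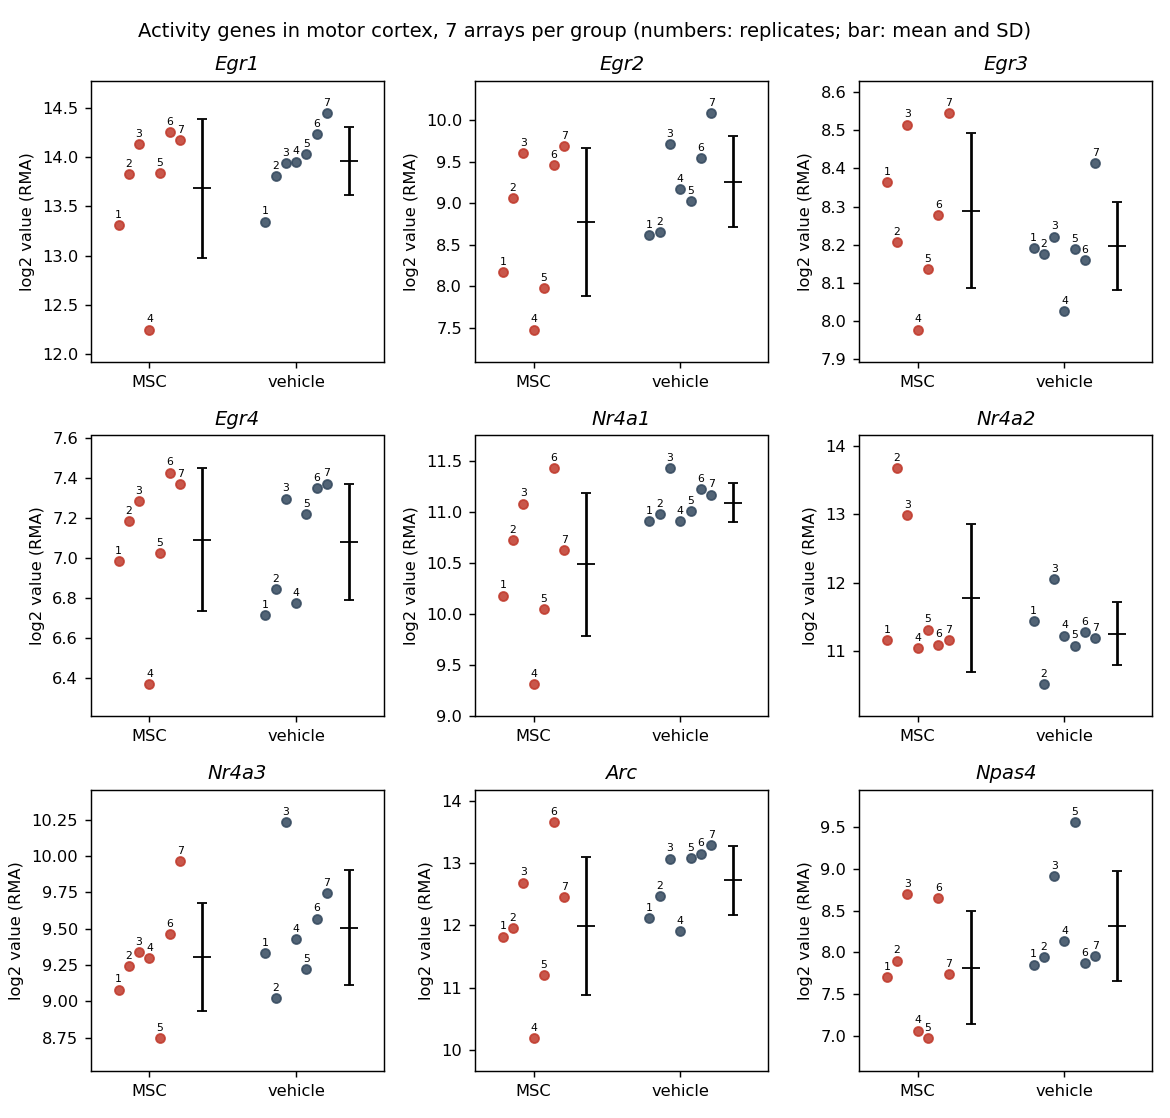
RMA log2 values of each of the 9 genes on every array, with MSC arrays on the left and vehicle arrays on the right of each panel; numbers are the replicate numbers and black bars the mean with its SD over 7 arrays. MSC replicate 4 is the lowest array for 6 of the genes, and Nr4a2 is set apart by MSC replicates 2 and 3 at 13.68 and 12.98.

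Among the Egr factors, Egr1 is the constitutively abundant member in cortex and a common marker of recent neuronal activity. It ran from 12.25 through a median of 13.84 to 14.25 in MSC arrays, and from 13.35 through 13.96 to 14.45 in vehicle arrays. The groups overlapped, with only MSC replicates 4 and 1, at 12.25 and 13.31, below every vehicle array. Means were 13.68 ± 0.71 in MSC and 13.97 ± 0.35 in vehicle arrays (SD, n = 7 each), a difference of -0.28 ± 0.27 (SE) with a 95% interval of -0.85 to 0.28. Without MSC replicate 4 the difference was -0.043, and the SD of the MSC arrays was 0.35.

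Egr2, also known as Krox20 and best known for its role in myelinating Schwann cells, is induced in cortical neurons together with Egr1. It ran from 7.48 through 9.06 to 9.69 in MSC arrays, and from 8.61 through 9.17 to 10.08 in vehicle arrays. MSC replicates 4, 5 and 1 lay below every vehicle array, and the other 4 lay within the vehicle range. The means were 8.78 ± 0.89 in MSC and 9.26 ± 0.55 in vehicle arrays (SD), a difference of -0.48 ± 0.35 (SE; 95% interval -1.23 to 0.27). Without MSC replicate 4 it was -0.27.

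Egr3 and Egr4 had the smallest differences of the 9. Egr3, which acts in plasticity and in muscle spindle development, averaged 8.29 ± 0.20 on MSC arrays and 8.20 ± 0.11 on vehicle arrays (SD), a difference of 0.092 ± 0.086 (SE). Its interval of -0.090 to 0.28 lay inside a change of 1.21-fold upward and 1.06-fold downward, the narrowest of the 9. The difference was 0.050 without MSC replicate 7, 0.14 without MSC replicate 4, and 0.0063 with MSC replicate 7 counted as vehicle. Egr4 averaged 7.09 ± 0.36 on MSC arrays and 7.08 ± 0.29 on vehicle arrays, a difference of 0.011 ± 0.16 (SE) whose sign turned in 7 of the 14 fits that left out an array. MSC replicate 4 was the lowest array for both, at 7.98 for Egr3 and 6.37 for Egr4.

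Nr4a1, known as Nur77, came nearest to a separation of the groups. It ran from 9.31 through 10.62 to 11.43 in MSC arrays, and from 10.90 through 11.01 to 11.43 in vehicle arrays. MSC replicates 4, 5, 1, 7 and 2, lay below every vehicle array, while replicates 3 and 6 lay within the vehicle range. Means were 10.48 ± 0.71 in MSC and 11.09 ± 0.19 in vehicle arrays (SD), so the MSC level was 0.66-fold that of vehicle, with a difference of -0.61 ± 0.25 (SE; 95% interval -1.13 to -0.082). That interval leaves out 0 before adjustment only (unadjusted p = 0.0262 in limma), since the adjusted p over all probe sets was 0.9999 in limma. Without MSC replicate 4 the difference was -0.41, and within replicates 1 to 5 and within replicates 6 and 7, it was -0.78 and -0.17.

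Nr4a2, known as Nurr1, is needed by dopamine neurons and marks claustrum, subplate and layer 6b neurons besides being inducible. It was highest in MSC replicates 2 and 3, at 13.68 and 12.98. The other 5 MSC arrays lay between 11.04 and 11.32, and the 7 vehicle arrays ran from 10.52 through 11.23 to 12.06. Means were 11.78 ± 1.08 in MSC and 11.26 ± 0.46 in vehicle arrays (SD), a difference of 0.52 ± 0.39 (SE; 95% interval -0.32 to 1.36), yet the medians were 11.16 in MSC and 11.23 in vehicle arrays. Without MSC replicate 2 the difference was 0.20, and without replicates 2 and 3 together it was -0.10 with an MSC SD of 0.10. Within replicates 1 to 5 the difference was 0.77, and within replicates 6 and 7 it was -0.10.

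The 6 genes with profiles most like that of Nr4a2, taken after its pattern was seen, were Glra3, Cd55, Drd5, Arhgap6, Kcnn3 and Cbln4, with Pearson r from 0.91 to 0.86 over 14 arrays. Glra3 is dim, with group means of 5.22 in MSC and 5.06 in vehicle arrays. Cbln4, a secreted synapse organiser, stood at 10.44 and 9.09 in MSC replicates 2 and 3 and from 7.05 to 8.04 in the other 12 arrays. Arhgap6 likewise stood at 8.24 and 7.45 in those replicates and from 6.55 to 6.81 elsewhere. Claustrum and layer 6b markers, 8 of 8 measured, averaged 7.65 to 8.26 in MSC and 7.74 to 8.01 in vehicle arrays, with MSC replicate 2 highest at 8.26 and MSC replicate 3 at 7.98, below vehicle replicate 1 at 8.01. MSC replicate 2 was also the highest for meningeal markers, at 9.27. Vehicle replicate 2, the lowest array for Nr4a2, came next for these markers at 9.10, and MSC replicate 3 stood at 8.36. The part of tissue position in the Nr4a2 values was not tested.

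Nr4a3, known as NOR-1, had means of 9.30 ± 0.37 in MSC and 9.51 ± 0.40 in vehicle arrays (SD), a difference of -0.20 ± 0.18 (SE; 95% interval -0.60 to 0.19). It ran from 8.74 to 9.97 in MSC and from 9.02 to 10.23 in vehicle arrays, so the groups overlapped almost fully. It is the only one of the 9 with a smaller SD in the MSC group. Without vehicle replicate 3, the highest array, the difference was -0.082, and without MSC replicate 7 it was -0.31. Within replicates 1 to 5 the difference was -0.31, and within replicates 6 and 7 it was 0.055. With MSC replicate 7, whose labels conflict, counted as vehicle, it was -0.37 (95% interval -0.73 to -0.011), with an unadjusted p of 0.0443 and an adjusted p of 0.9996 in limma.

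Arc values ran from 10.18 through 11.95 to 13.66 in MSC arrays, and from 11.90 through 13.08 to 13.29 in vehicle arrays. MSC replicates 4, 5 and 1 lay below every vehicle array, and MSC replicate 6 lay above every vehicle array. From lowest to highest array this is an 11.2-fold span in MSC and a 2.61-fold span in vehicle arrays. Means were 11.99 ± 1.11 in MSC and 12.73 ± 0.56 in vehicle arrays (SD), a level in MSC 0.60-fold that of vehicle, and a difference of -0.73 ± 0.42 (SE; 95% interval -1.62 to 0.15). It was -0.43 without MSC replicate 4 and -1.01 without MSC replicate 6, and within replicates 1 to 5 and within 6 and 7 it was -0.96 and -0.16.

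Npas4, which recruits inhibitory synapses through its targets, ran from 6.97 through 7.74 to 8.69 in MSC arrays, and from 7.85 through 7.96 to 9.55 in vehicle arrays. MSC replicates 5, 4, 1 and 7 lay below every vehicle array. Means were 7.82 ± 0.68 in MSC and 8.32 ± 0.66 in vehicle arrays (SD), a difference of -0.50 ± 0.32 (SE; 95% interval -1.18 to 0.18). Vehicle replicate 5, at 9.55, was the highest array, and without it the difference was -0.29. Within replicates 1 to 5 the difference was -0.81, and within replicates 6 and 7 it turned to 0.28.

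**Figure D2:**
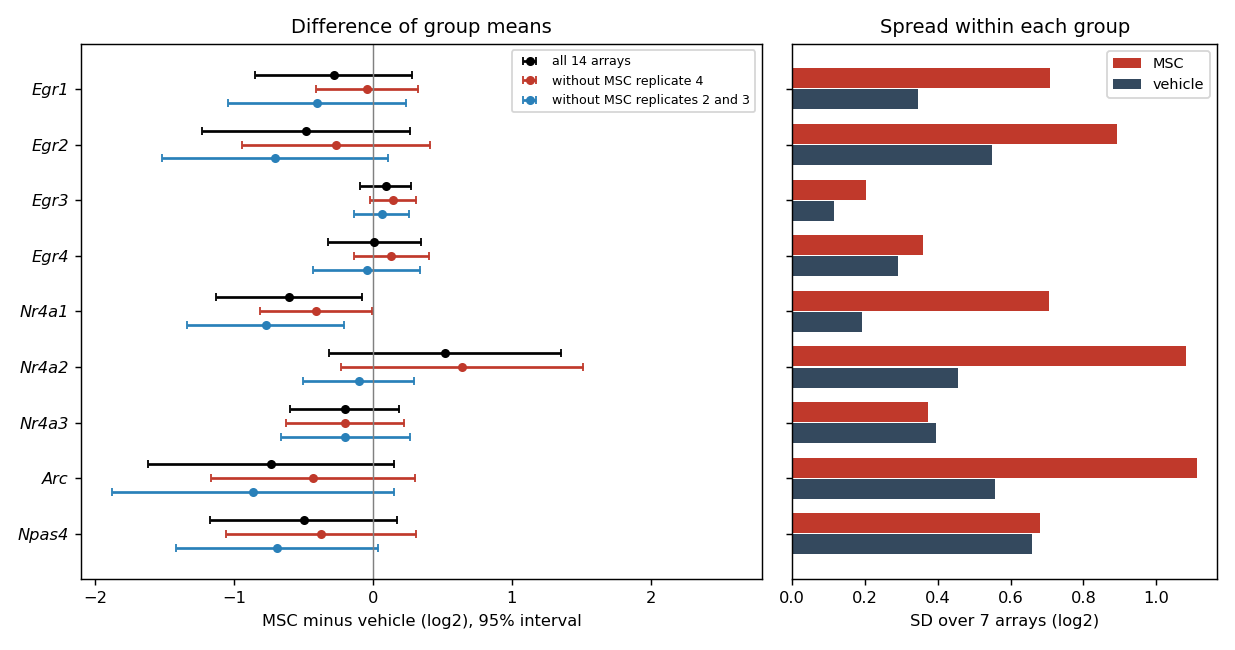
Left, MSC minus vehicle difference of log2 means with its 95% interval for each gene, over all 14 arrays (black), without MSC replicate 4 (red) and without MSC replicates 2 and 3 (blue); right, SD over 7 arrays in MSC (red) and vehicle (dark). Egr1 moves to -0.043 without MSC replicate 4, Nr4a2 to -0.10 without MSC replicates 2 and 3, and the SD is larger in MSC for 8 of the 9 genes.

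Spread within the groups was compared as well. The SD was larger in MSC arrays for 8 of the 9 genes, against 54.7% of all probe sets and 53.1% of genes, with SD ratios, MSC over vehicle, of 3.66 for Nr4a1, 2.37 for Nr4a2, 2.05 for Egr1, 1.78 for Egr3 and 1.63 for Egr2. The SD of Arc was 1.11 in MSC and 0.56 in vehicle arrays. Egr4 had a ratio of 1.23, Npas4 of 1.03 and Nr4a3 of 0.94. When absolute deviations from the group mean were fitted in limma, 0 of the 9 and 0% of all probe sets passed an adjusted p of 0.05. By this measure the deviations were larger in MSC for 6 of the 9, with MSC minus vehicle values of -0.0041 for Egr4, -0.012 for Npas4 and -0.053 for Nr4a3. At an unadjusted p below 0.05 with larger deviations in MSC, 3 of the 9 genes stood, Nr4a2, Nr4a1 and Egr2, against 3.63% of all probe sets (6.33% in either direction), and their adjusted p was 0.72 for Nr4a1 and Nr4a2 and 0.77 for Egr2. With deviations taken from the group median, only Nr4a1 of these 3 stayed below 0.05 in limma (unadjusted p = 0.0278, against 0.315 for Nr4a2 and 0.156 for Egr2). Of the 68842 probe sets, 628 were then below 0.05 with larger deviations in MSC, against 2500 around the mean. In either direction they numbered 1156, against 4361 around the mean. The wider spread rested in part on single arrays: without MSC replicate 4 the SD was larger in MSC for 7 of the 9. Without MSC replicates 4 and 6 and vehicle replicate 2, those with the highest choroid plexus or striatal means, it was larger for 5 of the 9. Nr4a1 kept the larger SD there, at 0.42 in MSC and 0.20 in vehicle arrays. That fit kept vehicle replicates 3 and 4, where the choroid plexus marker Ttr stood at 10.01 and 9.09, against 6.63 to 7.54 on the other arrays kept.

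The low arrays were largely shared between genes, the high arrays less so. MSC replicate 6 and vehicle replicates 3 and 7 were each the highest for 2 genes, and no array for more. MSC replicate 4 was the lowest of the 14 arrays for 6 genes, Egr1, Egr2, Egr3, Egr4, Nr4a1 and Arc, and lay below the 14-array mean for all 9. MSC replicate 5 was the lowest for Nr4a3 and Npas4, and vehicle replicate 2 for Nr4a2. Averaged over the 9 genes after centring each on its mean, MSC replicates 4, 5 and 1 stood at -1.04, -0.56 and -0.39, while vehicle arrays stood between -0.21 and 0.51. The other 4 MSC arrays stood between 0.16 and 0.45, within the vehicle range.

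**Figure D3:**
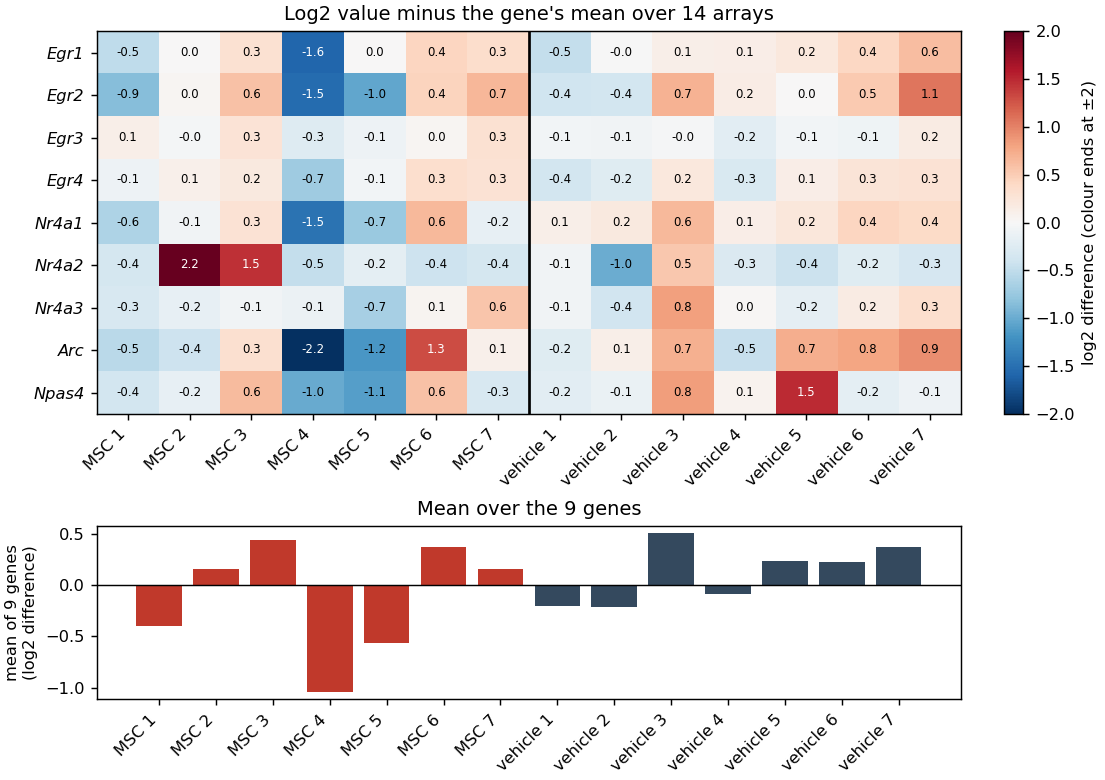
Top, each gene's log2 value minus its mean over the 14 arrays, MSC arrays left of the black line and vehicle arrays right of it; bottom, the mean of these values over the 9 genes. MSC replicates 4, 5 and 1 have the lowest means, at -1.04, -0.56 and -0.39, and Nr4a2 departs from the other rows in MSC replicates 2 and 3.

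With group means removed, Pearson r between 2 of the 9 genes ran from 0.15 to 0.92 over 14 arrays, with a median of 0.57 over the 36 pairs. Both r and Spearman's rho passed a permutation test in 15 pairs after Benjamini-Hochberg adjustment over the 36. The same count was not made for pairs of other genes, so it does not set these 9 apart. Nr4a1 and Arc had the highest r, 0.92, with rho 0.84 (two-sided permutation p = 1e-05, the smallest these permutations can give, and 0.00033, adjusted 0.00018 and 0.00198), and r was 0.77 without MSC replicates 4 and 6, the 2 arrays farthest from the median of Nr4a1. Egr4 and Arc followed with r 0.91 and rho 0.91 (permutation p = 1e-05 and 3e-05, adjusted 0.00018 and 0.00108), and r 0.84 without MSC replicate 4 and vehicle replicate 1. Egr1, Egr2, Egr4, Nr4a1 and Arc, grouped after the values were seen, had r of 0.82 to 0.92 among themselves and of 0.59 to 0.87 without MSC replicate 4. The permutations ran over all 14 arrays, not within groups. Their p-values thus take no account of SDs that differ between groups, 0.71 in MSC and 0.19 in vehicle arrays for Nr4a1.

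Nr4a2 stood at the low end, with r of 0.15 to 0.40 with the other 8 genes and no pair past the permutation test. For Nr4a2 and Arc, r was 0.16 and rho 0.20 (permutation p = 0.565 and 0.483, adjusted 0.581 and 0.527), and r was 0.11 without MSC replicates 2 and 3. Without the 2 arrays farthest from the median of the first gene of a pair, r over the 8 pairs with Nr4a2 ran from 0.092 with Egr1 to 0.69 with Nr4a1, where MSC replicates 4 and 6 were left out. Within replicates 1 to 5, 10 arrays, r ran from 0.40 to 0.85 for pairs with Nr4a2 and from -0.033 to 0.94 for the other 28 pairs. Replicates 6 and 7, with 4 arrays, are too few for a correlation. Whether the low values for Nr4a2 differ from those of the other genes was not tested.

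**Figure D4:**
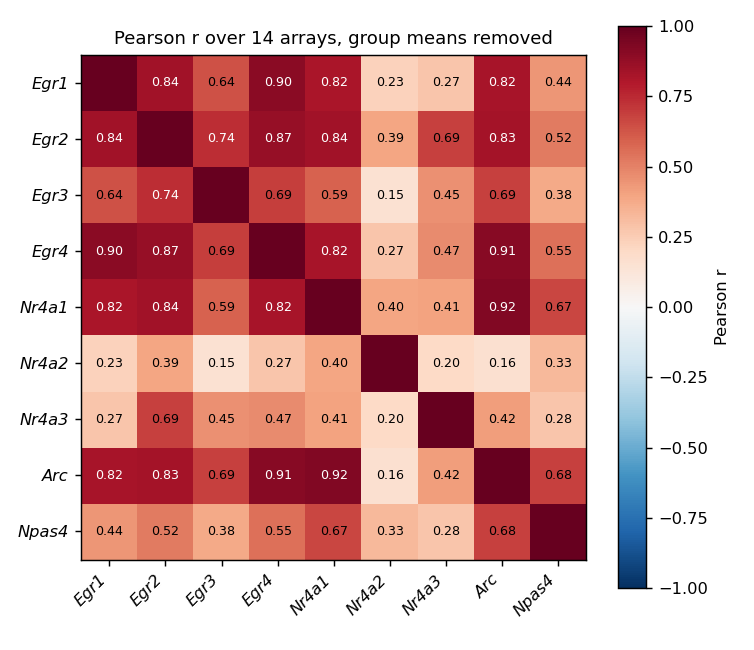
Pearson r for each pair of the 9 genes over 14 arrays after removal of the group means, with colour from -1 to 1. Nr4a1 and Arc reach 0.92, and the Nr4a2 row stays between 0.15 and 0.40.

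The genes outside the 9 whose profiles were most like the mean of the 9 included other immediate early genes. By Pearson r over 14 arrays these were Trib1, a pseudokinase (0.93), Fosb (0.88), Junb (0.87) and Fos (0.83), each an AP-1 subunits, together with Sox15 (0.83), Rel, an NF-kappaB subunit (0.81), C10h17orf58 (0.79) and Vwa5al1 (0.78). They were selected for this likeness from all named genes. Without MSC replicate 4 the values were 0.86 for Trib1, 0.83 for Fosb, 0.84 for Junb and 0.72 for Fos, and 0.61 to 0.69 for the other 4. Sox15 and C10h17orf58 are dim, with group means of 5.53 and 5.68 in MSC and 5.60 and 5.68 in vehicle arrays.

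Other immediate early genes also had mostly lower means in MSC. Of 27 measured out of 28 listed, 22 had lower means in MSC, with a median of -0.14, and 0 passed the adjusted test. At an unadjusted p below 0.05 stood 8, all lower in MSC, against 2.41% of all probe sets. Dusp1, a MAP kinase phosphatase, averaged 10.54 ± 1.02 on MSC arrays and 11.90 ± 0.28 on vehicle arrays (SD, n = 7 each). Ier2 averaged 6.53 ± 0.47 on MSC arrays and 7.44 ± 0.58 on vehicle arrays, and these 2 had the smallest unadjusted p. The SD was larger in MSC for 20 of these 27. Delayed activity genes, which follow hours later, had 6 of 17 lower and a median of 0.049. Gadd45g and Tiparp had the smallest unadjusted p there, with differences of -0.30 ± 0.094 and -0.39 ± 0.14 (SE; adjusted p = 0.9999 for both in limma).

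The signalling routes that switch these genes on had medians near 0. Genes of the SRF and MAP kinase route, 14 of 19 measured, had 5 lower means and a median of 0.044, with Elk4, an SRF partner, at -0.087 ± 0.045 (SE) and Mrtfa, an actin-regulated SRF coactivator, at 0.25 ± 0.13. Genes of the calcium, CREB and MEF2 route had 8 of 23 lower and a median of 0.030, with Crtc3, a CREB coactivator, at 0.12 ± 0.070 and the NMDA receptor subunit Grin2b at 0.24 ± 0.15. Partners of the 9 proteins, such as the Egr corepressors Nab1 and Nab2 and the Npas4 partner Arnt2, had 3 of 13 lower and a median of 0.028. Among them, Sh3gl1, an endophilin, was at 0.17 ± 0.073 and Wasf1, a regulator of actin branching, at 0.15 ± 0.093. None of the genes in these 3 lists passed the adjusted test, and RNA levels say nothing of the phosphorylation by which these routes act. Over all genes with 1 symbol the median was -0.0038.

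Markers of other tissue moved with some of the arrays that stood apart. MSC replicate 4, lowest for 6 of the 9 genes, had the highest mean of hippocampal neuron markers, 8.65 over 7 of 8 measured, against 7.41 to 8.25 on the other arrays, where MSC replicate 5 came next at 8.25. Its oligodendrocyte markers averaged 12.15, next to 12.12 in vehicle replicate 5. Its 8 choroid plexus markers averaged 9.18, with Ttr at 16.91. Vehicle replicate 2 had as much plexus signal, with a mean of 9.22 and Ttr at 16.81, and the lowest hippocampal mean, 7.41. Its centred mean of the 9 genes, -0.21, was the lowest of the vehicle arrays, with 7 of the 9 below their 14-array means. Its Nr4a2 value, 10.52, was the lowest of all arrays, and its Nr4a3 value, 9.02, the lowest of the vehicle arrays. Vehicle replicate 1, with a choroid plexus mean of only 5.70, had a centred mean of -0.20, with 8 of the 9 below their 14-array means. With MSC replicate 4 and vehicle replicate 2 both left out, 6 of the 9 genes had lower means in MSC. The difference was then -0.069 for Egr1, -0.48 for Arc and -0.43 for Nr4a1, whose 95% interval of -0.87 to 0.0081 included 0. With MSC replicate 6 left out as well, Nr4a1 differed by -0.58 (95% interval -0.95 to -0.21) and Arc by -0.75 (-1.42 to -0.075). Both of these intervals leave out 0 before adjustment only, and no probe set passed the adjusted test. In that fit Egr1 differed by -0.14 and Nr4a2 by 0.68, with intervals that included 0. MSC replicates 5 and 1, next lowest for the mean of the 9, had choroid plexus means of 5.62 and 5.72. MSC replicate 6, highest for Arc and Egr4, was highest for striatal markers at 8.73. The part of choroid plexus, hippocampal and striatal tissue in these values was not tested. Over whole marker lists, means were lower in MSC for 1 of 10 neuron, 2 of 9 striatal, 0 of 7 hippocampal, 1 of 8 claustrum and layer 6b, 2 of 8 astrocyte and 4 of 7 oligodendrocyte markers. They were lower for 4 of 8 microglia, 6 of 7 endothelial, 5 of 8 choroid plexus, 1 of 8 meningeal and 3 of 7 blood markers. List medians of the difference ran from -0.16 for endothelial (-0.048 without vehicle replicate 2) to 0.20 for striatal markers (0.073 without MSC replicate 6), with no gene past the adjusted test. The hippocampal median, 0.16, was 0.022 without MSC replicate 4. The choroid plexus median, -0.070, ran from -0.42 to 0.34 with 1 array left out.

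**Figure D5:**
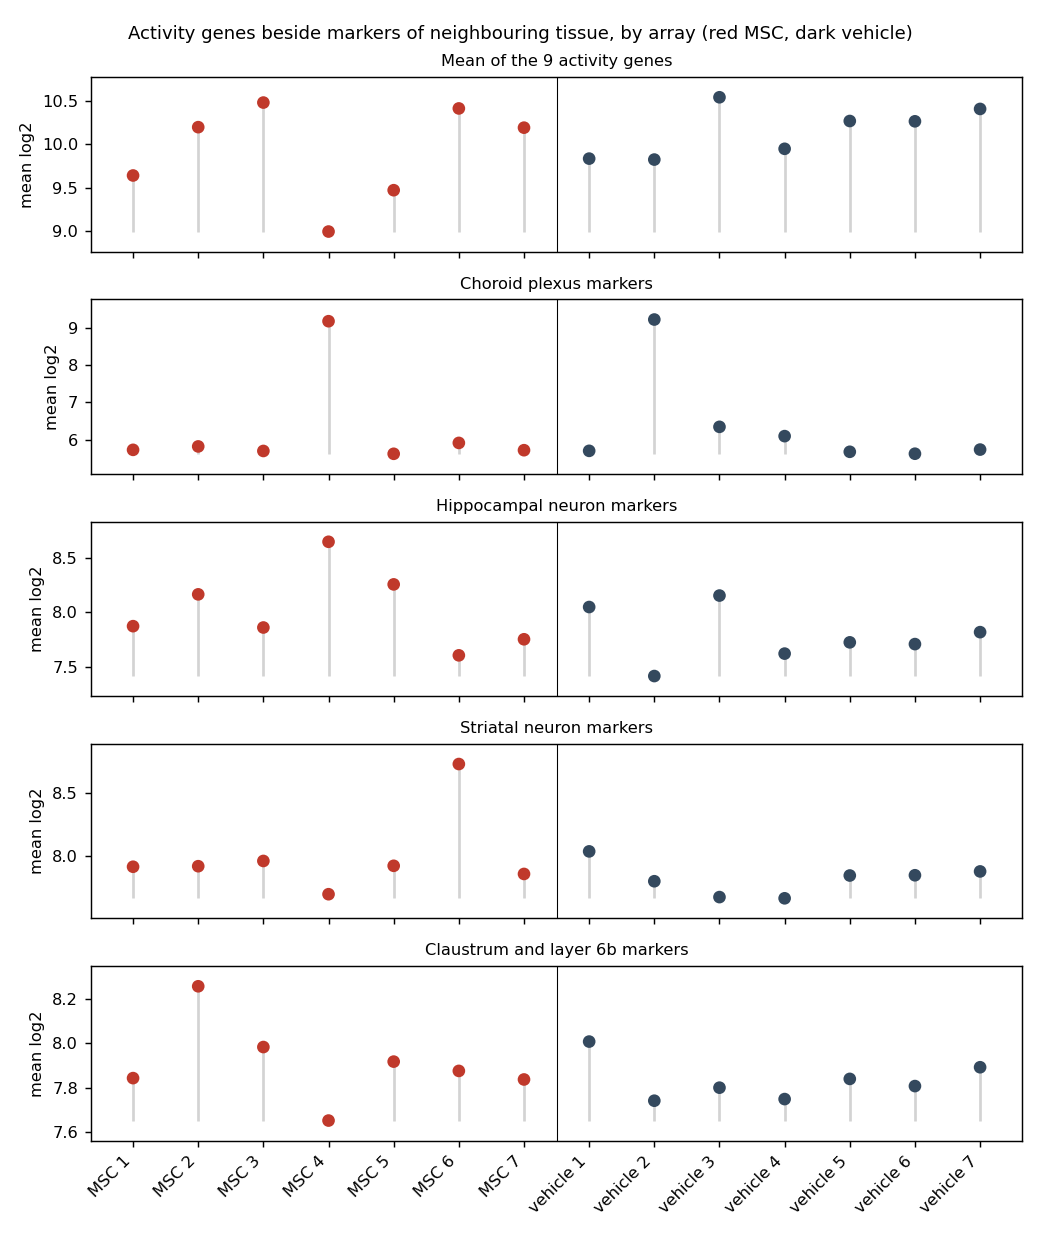
Mean log2 value per array of the 9 activity genes and of 4 marker lists, each on its own axis, with MSC arrays (red) left of the line and vehicle arrays (dark) right of it. MSC replicate 4 is lowest for the activity genes and high for choroid plexus markers at 9.18, a level that vehicle replicate 2 shares at 9.22.

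Limits of the comparison follow from 7 arrays a group. The 95% half-interval of a difference ran from 0.18 for Egr3 to 0.89 for Arc on the log2 scale, and intervals included a change of 1 log2 unit downward for Egr2, Nr4a1, Arc and Npas4 and upward for Nr4a2. A difference that missed the threshold does not show equal levels.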

How the data were processed

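Motor cortex RNA, 100 ng per array, was measured on 14 Affymetrix whole-transcript arrays. The deposited values are log2 signals that the authors summarised by RMA, run in Expression Console of Affymetrix according to the submitters' processing notes. The sources used here give no versions, settings or genome build. RMA subtracts background, equalises arrays and summarises probes, which pulls differences of dim probe sets towards 0. Of 70580 probe sets, 1738 controls were left out. For the other 68842, limma 3.58.1 (R 4.3.3) was fitted (lmFit, eBayes, no covariate, Benjamini-Hochberg over all, threshold 0.05), 7 MSC against 7 vehicle arrays grouped by title. Spread was fitted the same way on absolute deviations from group means, and correlations used 100000 permutations. The precision is limited by the number of arrays. Fits were tested on simulated data.

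Members and lists were chosen with earlier results of these data known, and no set test was run. Of 193 entries in 16 lists, 181 matched a measured gene. Named are the 9 genes, from each pathway list the 2 genes with the smallest unadjusted p, and the 8 genes most correlated with the mean of the 9; the genes most like Nr4a2 and single markers were added after values were seen. Whether replicate numbers pair the samples was not settled. Alternatives were other normalizations, filters, moderation, array weights, a spike-in batch, the replicate block, MSC replicate 7 as vehicle and arrays left out. No pair of arrays was identical.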

Additional observations from a re-analysis of the deposited data

Results flagged for a closer look

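Of 52 groups of 7 arrays examined, 6 held an array far from the rest, judged by its gap to the nearest other array as a share of the whole range of the group. Chance alone flags about 5% of groups. One concerned the activity genes: Egr4 in MSC replicate 4, at 6.37 against 6.98 to 7.43 in the other MSC arrays, a share of 0.580. The other 5 concerned marker means: choroid plexus in MSC replicate 4 (0.918) and vehicle replicate 2 (0.800), striatal neurons in MSC replicate 6 (0.745), and meninges in MSC replicate 2 (0.733) and vehicle replicate 2 (0.713). Nr4a2 held no such array, since MSC replicates 2 and 3 were high together.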

How the results depend on the processing

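No gene of the 9 passed the threshold for its mean in any alternative, including the fit with the replicate block (0 called) and the combined exclusions, which were chosen after seeing the data. None passed for its spread in the alternatives where spread was fitted, which leaves out trended and robust moderation, array weights and replicates 6 and 7 alone. The 6 lower means became 6 to 7 when 1 array was left out, with a median difference of -0.39 to -0.20, and 5 within replicates 6 and 7, where 1 of all probe sets was called. Whether replicate numbers pair the samples was not settled. Over all genes with 1 symbol, deviations of same-numbered arrays correlated at -0.20 to 0.33, and the own number was the best match for 2 of 7. Such a count cannot exclude pairing or shared processing by number. The replicate block leaves each difference as it is by construction (median -0.28), since each number holds 1 array per group. With it, the SE fell for Arc to 0.26 from 0.42 and for Egr4 to 0.090 from 0.16, and rose for Npas4 to 0.33 from 0.32. The unadjusted p in limma moved to 0.0192 from 0.0978 for Arc and to 0.0084 from 0.0262 for Nr4a1. Genes with a larger SD in MSC numbered 7 to 9 with 1 array left out and 5 without MSC replicates 4 and 6 and vehicle replicate 2. The median r of the 36 pairs was 0.52 to 0.62 with 1 array left out, 0.50 with group means kept, 0.54 after median centring and 0.58 after quantile normalization. No gene had a second probe set, so that alternative was not run, and the spread fit within replicates 6 and 7 was void and its values were dropped, since the 2 arrays of a group have equal deviations and leave no residual spread.

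Some signs turned, always for values not past the threshold; the cause was not tested. The Egr4 difference ran from -0.050 to 0.13 with 1 array left out, and was -0.071 with MSC replicate 7 counted as vehicle, -6e-05 within replicates 1 to 5, -0.031 with array weights and -0.046 without MSC replicates 2 and 3. Without those replicates Nr4a2 differed by -0.10, as within replicates 6 and 7 (-0.10), where Nr4a3 was 0.055 and Npas4 0.28. The difference in absolute deviation, MSC minus vehicle, with 1 array left out ran from -0.12 to 0.034 for Egr4, from -0.11 to 0.050 for Nr4a3 and from -0.093 to 0.25 for Npas4. For Egr4 and Npas4 it was 0.011 and 0.042 after quantile normalization, 0.0050 and 0.11 with MSC replicate 7 as vehicle, and 0.0029 and 0.089 around group medians, and for Egr4 0.010 within replicates 1 to 5. Without MSC replicates 2 and 3 it was 0.044 for Egr4, -0.23 for Nr4a2 and 0.045 for Nr4a3. It was 0.017 for Nr4a3 without MSC replicate 4 and vehicle replicate 2, and without MSC replicate 6 as well -0.0039 for Egr1, 0.045 for Nr4a3 and -0.062 for Arc. For dim probe sets RMA limits what could be seen, but all 9 genes lay above the array medians.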
